A study of Mus musculus with 26 samples.

Results

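Genes of peptide signalling in the retina were followed in all 5 experiments of the study. They were chosen by symbol: Penk, Sst, Tac1, Npy, Vip and Cck, which encode neuropeptide precursors, and Sstr2, which encodes a somatostatin receptor. These are 7 of 37991 genes in the deposited count table, and each symbol belonged to 1 Ensembl identifier. The genes were proposed with results of the same libraries in view, so the tests below describe them and are not independent evidence that they respond. All animals were mice homozygous for rd10, a mutation of the rod phosphodiesterase gene Pde6b that kills rods and then cones. They were injected intraperitoneally from postnatal day (PN) 9 until PN24, when retinas were taken. Whole retinas were compared in 4 experiments, each with its own controls: DZNep, an EZH2 inhibitor (2 treated, 4 control), UNC1999, also an EZH2 inhibitor (3 treated, 3 control), UNC0642, a G9A/GLP inhibitor (2 treated, 2 control), and Romidepsin, a histone deacetylase inhibitor (3 treated, 3 control). In the fifth experiment rods were sorted by flow cytometry from mice homozygous for rd10 that also carried Nrl-EGFP, a green fluorescent protein driven in rods by the Nrl promoter, after the LSD1 inhibitor GSK2879552 (GSK, 2 treated) or saline (2 control). The labels give saline as the control treatment, and the study's methods give a mixed DMSO-based diluent for UNC1999. DZNep was injected every second day in the later part of its course. Age and the rd10 background were therefore shared by treated and control retinas, and no retina without rd10 was measured.

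Neuropeptides are made as precursors that are cut in dense core vesicles and released alongside a fast transmitter, after which they act on G protein-coupled receptors. In the retina they mark sparse types of amacrine cells, inhibitory interneurons of the inner retina. Penk encodes proenkephalin, the source of enkephalins. Sst encodes somatostatin, and Sstr2 encodes one of its receptors. Tac1 encodes the precursor of substance P. Npy, Vip and Cck encode neuropeptide Y, vasoactive intestinal peptide and cholecystokinin. Several of these genes are textbook targets of CREB, the factor that binds the cyclic AMP response element (CRE).

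The CRE is shown first. Several of the genes were already known as CREB targets, so its presence in them is a description and was not an open test. The 250 bases before the transcription start were read from RefSeq promoter sequences of GRCm38.p6, which held 6 of the 7 genes. Penk had no entry. The motifs searched on both strands were the full CRE TGACGTCA, its half-site TGACG (each full CRE contains overlapping half-sites on both strands) and the AP-1 site TGANTCA. The full CRE was found in Sst and Sstr2, and it was found in 1.55% of 32851 promoters of the same length. A half-site was found in Sst, Sstr2, Tac1, Vip and Cck, and in 17.8% of all promoters. Npy held none, and no member held the AP-1 site, which 6.75% of all promoters held. The upstream sequences of the 5 genes with a match are given 5′ to 3′ on the gene's strand, with each CRE or half-site in capitals.
Sst, chr16:23890845-23891094, minus strand: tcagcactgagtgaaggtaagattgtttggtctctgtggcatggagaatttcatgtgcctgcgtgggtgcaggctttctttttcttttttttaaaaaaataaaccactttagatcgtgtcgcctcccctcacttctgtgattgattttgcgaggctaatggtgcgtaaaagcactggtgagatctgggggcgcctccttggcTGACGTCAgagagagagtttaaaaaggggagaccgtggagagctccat
Sstr2, chr11:113619077-113619326, plus strand: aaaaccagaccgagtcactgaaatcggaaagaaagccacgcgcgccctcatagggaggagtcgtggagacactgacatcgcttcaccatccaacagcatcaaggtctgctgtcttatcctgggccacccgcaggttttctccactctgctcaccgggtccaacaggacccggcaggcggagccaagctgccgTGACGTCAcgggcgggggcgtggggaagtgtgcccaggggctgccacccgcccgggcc
Tac1, chr6:7554811-7555060, plus strand: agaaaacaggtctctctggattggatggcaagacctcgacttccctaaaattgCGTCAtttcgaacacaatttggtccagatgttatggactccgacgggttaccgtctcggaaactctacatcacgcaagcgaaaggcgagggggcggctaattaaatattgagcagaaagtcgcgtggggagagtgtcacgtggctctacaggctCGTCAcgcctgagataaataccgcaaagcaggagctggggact
Vip, chr10:5638968-5639217, plus strand: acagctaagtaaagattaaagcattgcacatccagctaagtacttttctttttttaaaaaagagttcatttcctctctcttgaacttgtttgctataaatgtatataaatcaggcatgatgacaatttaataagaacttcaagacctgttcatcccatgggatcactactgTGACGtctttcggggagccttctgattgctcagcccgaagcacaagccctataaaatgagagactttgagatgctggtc
Cck, chr9:121495695-121495944, minus strand: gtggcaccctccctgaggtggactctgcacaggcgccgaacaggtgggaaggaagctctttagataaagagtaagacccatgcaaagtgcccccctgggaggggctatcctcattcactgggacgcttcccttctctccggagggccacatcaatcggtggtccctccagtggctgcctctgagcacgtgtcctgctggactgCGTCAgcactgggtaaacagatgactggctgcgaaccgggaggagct
The full CRE lay 48 to 41 bases before the start of Sst and 58 to 51 bases before that of Sstr2. The half-site lay 79 to 75 bases before the start of Vip and 47 to 43 bases before that of Cck, and Tac1 held 2 half-sites, the nearer one 43 to 39 bases away. These are matches of letters. Binding was not measured.

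In the build of the files, NCBIM37, the genes lie on 6 chromosomes by the GENCODE M1 annotation. Penk is at chr4:4060678-4065966 (minus strand), Sst at chr16:23889667-23890930 (minus), Sstr2 at chr11:113480656-113487319 (plus), Tac1 at chr6:7505071-7512973 (plus), Npy at chr6:49772709-49779506 (plus), Vip at chr10:4698927-4707323 (minus) and Cck at chr9:121398943-121404807 (minus). Vip is annotated on the minus strand in NCBIM37 and on the plus strand in GRCm38.p6, from which its upstream sequence was read. Reads were counted over exons. Penk shares 233 exonic bases with A830012C17Rik on the opposite strand, which had at most 2 counts in any library. Slc39a11 spans Sstr2 on the opposite strand and shares 0 exonic bases with it.

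The retina libraries held 13732959 to 36354094 counts, and the sorted rod libraries 7289460 to 19864491. A gene at 0 counts could still be present at up to 3 counts, which is 0.0825 to 0.218 counts per 1000000 (CPM) in the retinas and 0.151 to 0.412 CPM in the rods, for counting error only. CPM values below were scaled by the trimmed mean of M values (TMM) within each experiment, so levels set side by side across experiments carry a separate scaling. Sets of cell type markers differed between treated and control retinas. The 9 rod markers were above 0 in log2 fold change in DZNep, UNC1999 and Romidepsin, and all 9 rose in DZNep, with 0 passing in UNC1999 and Romidepsin. The 8 Mueller glia markers all fell in DZNep, as did 8 of 11 bipolar and 4 of 5 horizontal cell markers. All 9 markers of the retinal pigment epithelium (RPE), the pigmented layer behind the photoreceptors, lay above 0 in DZNep (5 rose, median 1.17) and in UNC1999 (6 rose, median 1.73), where no other marker list held a gene that passed. In Romidepsin 8 of the 9 lay below 0 (median -1.04, 0 passing). Their summed level was 53.0 to 152 CPM in the DZNep controls and 196 to 263 CPM in the treated retinas. All 9 microglia markers lay below 0 in log2 fold change in each of the 4 retina experiments with 0 passing the test.

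All 7 genes were detected in all 22 retinas, at 62 to 1107 counts. Per kilobase of exon, Npy had the highest level in the 12 control retinas, 32.8 ± 4.79 CPM per kb (SD, n = 12). Cck followed at 18.1 ± 3.41, Tac1 at 18.0 ± 3.77, Vip at 14.9 ± 2.40 and Penk at 14.1 ± 10.7 CPM per kb, and the SDs of these 4 overlapped. The SDs hold differences between libraries that the genes share. Within every control retina Tac1 lay above Vip. Npy and Cck overlapped at their edges, with the lowest Npy library at 25.2 and the highest Cck library at 25.3 CPM per kb. These were different libraries, and within every control retina Npy lay above Cck. Sst was at 8.61 ± 1.62 and Sstr2 at 3.84 ± 0.534 CPM per kb, and the highest Sstr2 library (4.82) lay below the lowest Sst library (6.00). The receptor was thus the lowest of the 7 in level and also the most even. Over the 22 retinas, its highest CPM was 1.70 times its lowest, against 2.01 for Vip, 2.45 for Npy, 2.60 for Tac1, 2.71 for Cck and 3.58 for Sst. Penk stood apart, with a ratio of 10.5.

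**Figure D1:**
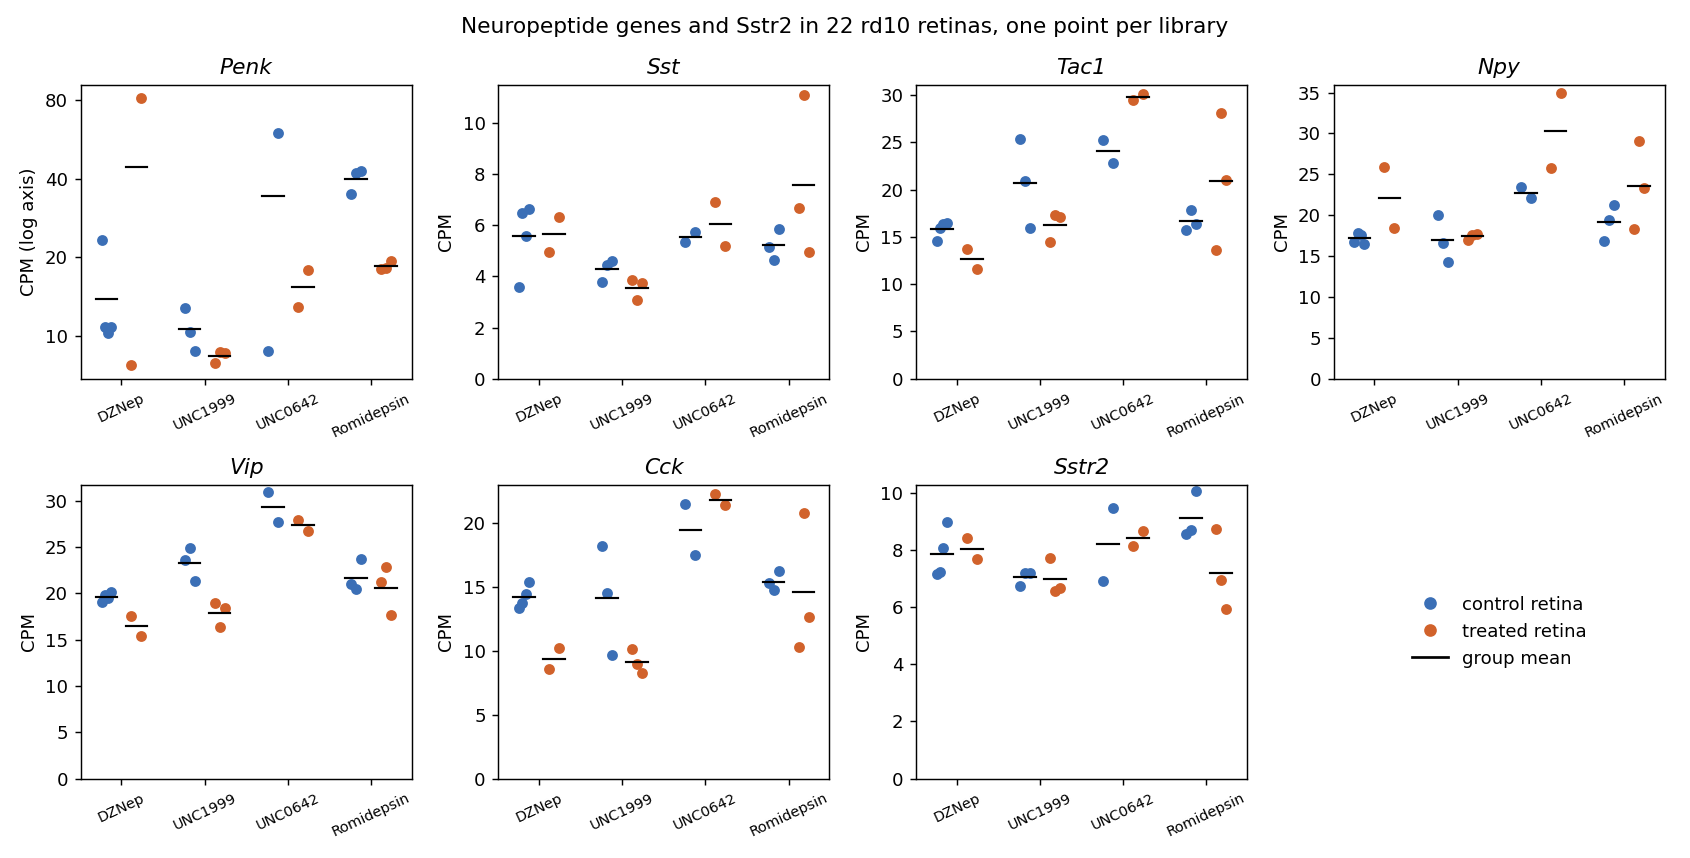
Each panel plots one gene, with CPM on the vertical axis (a log axis for Penk, from 0 for the others) and the 4 retina experiments on the horizontal axis. Points are libraries, blue for control and orange for treated retinas, and black lines are group means. Penk spans 7.73 to 81.1 CPM, with 1 high library in the treated DZNep group and 1 in the control UNC0642 group.

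The first comparison asked how the peptide genes stood in retinas given DZNep. Cck and Tac1 fell and Npy rose, while Vip missed the threshold. Cck was at 13.3, 13.7, 14.4 and 15.3 CPM in the controls and at 8.55 and 10.2 CPM in the treated retinas. Both treated retinas were below every control, and the log2 fold change was -0.62 (SE 0.11, adjusted p = 0.00493 in edgeR's quasi-likelihood test, n = 2 and 4). Tac1 was at 14.6, 15.9, 16.4 and 16.5 CPM in the controls and at 13.7 and 11.6 CPM after DZNep, again without overlap (log2 fold change -0.31, SE 0.095, adjusted p = 0.0460). Npy was at 16.8, 17.8, 17.6 and 16.5 CPM in the controls and at 25.9 and 18.4 CPM in the treated retinas. Both treated retinas lay above every control, but 1 of them by little (log2 fold change 0.39, SE 0.12, adjusted p = 0.0458). Without the treated retina at 25.9 CPM, Npy had a log2 fold change of 0.10 (adjusted p = 0.563). Vip was at 19.1, 19.9, 19.5 and 20.1 CPM in the controls and at 17.6 and 15.4 CPM after DZNep, also below every control, with a log2 fold change of -0.24 and an adjusted p of 0.0512. Thus 3 of 7 members passed, 2 lower and 1 higher, where 22.7% of the 16477 genes tested passed in this experiment (9.72% lower and 12.9% higher), and 4 of 7 did not overlap between groups, where 45.9% of all genes did not. Read against these shares, neither count sets the members apart from the other genes tested.

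Penk had the largest log2 fold change of the members in DZNep, 1.61 (SE 0.71, adjusted p = 0.135), and it did not pass. It was at 23.4, 10.8, 10.2 and 10.9 CPM in the controls and at 7.73 and 81.1 CPM in the treated retinas. The treated retinas lay on opposite sides of the controls. With no filter on low counts the adjusted p of Penk was 0.0447. Sst and Sstr2 gave small differences in the same retinas. Sst was at 3.60, 6.49, 5.58 and 6.65 CPM in the controls and at 4.96 and 6.33 CPM after DZNep, with a log2 fold change of -0.0088 ± 0.24 (SE). Sstr2 was at 7.15, 7.22, 8.07 and 8.98 CPM in the controls and at 8.40 and 7.67 CPM after DZNep (log2 fold change 0.038 ± 0.13, SE). The groups overlapped for Sst and for Sstr2.

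Markers of amacrine cells were also lower in these retinas, and this was not particular to them. The summed bipolar, horizontal cell, Mueller glia, cone and vascular markers lay below every control too. The 11 ganglion cell markers tested all lay below 0, and 3 fell. Of 12 amacrine markers tested, 11 lay below 0 and 5 fell, among them Slc32a1, the vesicular inhibitory amino acid transporter (log2 fold change -0.30), and Pax6 (log2 fold change -0.27), with a median of -0.26. Their summed level was 2984 to 3517 CPM in the controls and 2841 to 2847 CPM in the treated retinas. In bulk tissue, fewer cells of a type and less RNA per cell cannot be told apart. The rod markers summed to 16306 to 27489 CPM in the controls and 50416 to 51838 CPM in the treated retinas. The part of this larger rod share in the lower values was not tested. Library sizes were also scaled to the amacrine markers, an alternative chosen after seeing the data. The log2 fold change was then -0.39 for Cck (adjusted p = 0.0399), 0.60 for Npy (adjusted p = 0.0138) and -0.096 for Tac1 (adjusted p = 0.534). These markers cover amacrine cells broadly and need not follow the sparse types that hold a peptide. Leaving out 1 library at a time, Cck passed except without treated replicate 1 (adjusted p = 0.0731). Tac1 passed without control replicate 1 (adjusted p = 0.0275) and had an adjusted p of 0.0692 to 0.226 without any other library, and Npy passed without treated replicate 2 (adjusted p = 0.00721) and had one of 0.0602 to 0.563 otherwise. The calls also depended on the test and on how the spread was estimated. Tac1 had an adjusted p of 0.0625 by the likelihood ratio test and 0.0869 by DESeq2, and Vip had one of 0.0452 with RLE scaling and 0.0458 among genes with at least 10 counts in every library. Cck had an adjusted p of 0.135, Npy of 0.182 and Tac1 of 0.407 in one model of all 22 retinas.

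Genes that make, store and degrade peptides were also measured. Among 40 other neuropeptide precursors, 19 could be tested in DZNep. Pdyn, the prodynorphin gene, and Calca, which encodes calcitonin gene-related peptide, fell (log2 fold changes -0.65 and -0.69), and Vgf and Nucb2, the nesfatin gene, rose (0.35 and 0.55). Of 14 receptors of the member peptides tested, 12 lay below 0 and Cckbr, a cholecystokinin receptor, fell (-0.39). Of 15 genes of peptide processing and dense core vesicles, 6 fell and 2 rose. Cadps, which primes vesicles for release, fell by 0.35 on the log2 scale, Scg3 by 0.24, Chgb by 0.21 and Scg2 by 0.22. Cpe, a carboxypeptidase that trims the cut peptides, rose (0.33), as did Scg5 (0.17). Of 12 peptidases, Ece2, Ece1 and Enpep fell (-0.55, -0.24 and -0.53) and Prep rose (0.24). The medians of these 4 lists were -0.12, -0.21, -0.21 and 0.010, against -0.00057 over all genes tested. No gene of these 4 lists passed the test in the other 4 experiments.

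**Figure D2:**
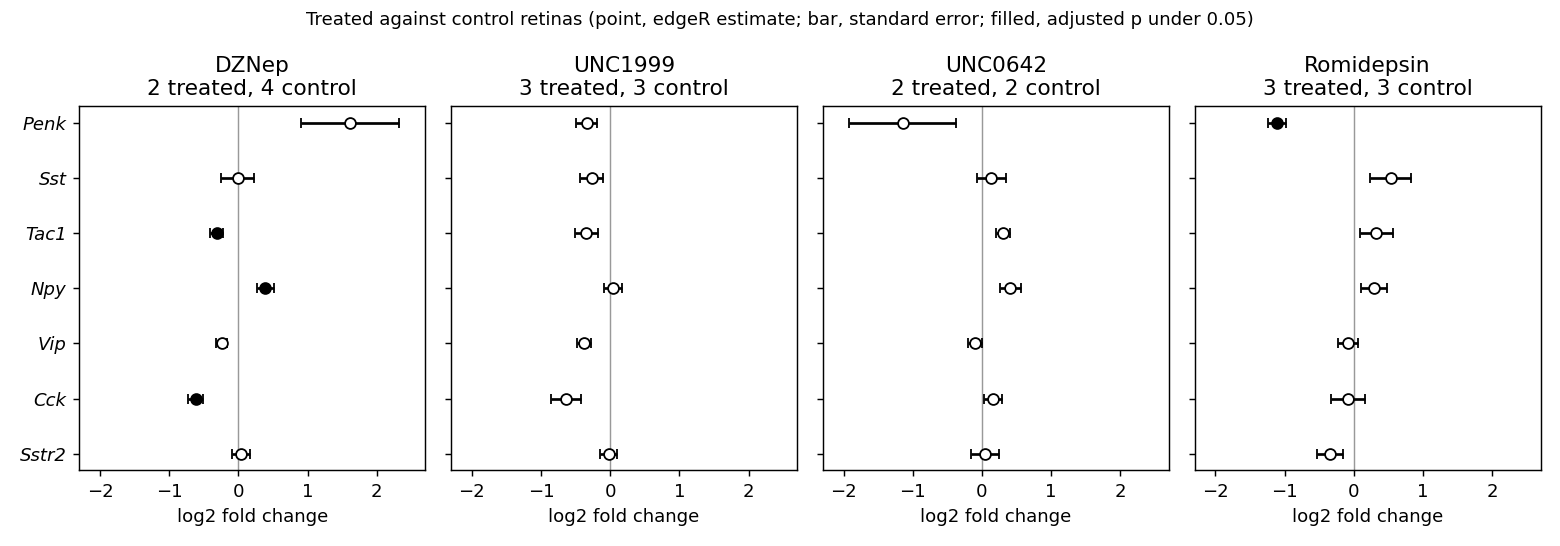
Log2 fold changes of treated against control retinas are plotted on the horizontal axis for each gene, in 1 panel per experiment. Points are edgeR estimates, bars are standard errors derived from the quasi-likelihood F, and filled points passed at an adjusted p under 0.05. Cck, Tac1 and Npy are filled in DZNep and Penk in Romidepsin.

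The second comparison used UNC1999, which inhibits the same enzyme as DZNep. None of the 7 members passed, where 0.602% of 15775 genes did (95 genes), and 2 of 7 were below every control in all treated retinas, where 13.6% of all genes were. At an unadjusted p under 0.05, 23.6% of all genes were called, and Vip and Cck were among them. Vip was at 23.7, 24.9 and 21.3 CPM in the controls and at 19.0, 16.3 and 18.4 CPM in the treated retinas. No treated retina reached the lowest control (log2 fold change -0.38, SE 0.098, adjusted p = 0.0777). By edgeR's likelihood ratio test the adjusted p of Vip was 0.0314, and by DESeq2 it was 0.0366. Cck was at 18.2, 14.5 and 9.67 CPM in the controls and at 10.1, 8.92 and 8.21 CPM in the treated retinas. Its controls spread widely and the third control fell within the treated range (log2 fold change -0.64, SE 0.22, adjusted p = 0.132). Tac1 had a like spread, with controls at 25.4, 21.0 and 16.0 CPM and treated retinas at 14.5, 17.3 and 17.1 CPM (log2 fold change -0.34, adjusted p = 0.260). The third control decided these calls: without it Cck had an adjusted p of 0.00774, Vip of 0.0238 and Tac1 of 0.0361, and 3 of 7 members passed. In that fit 2707 of 16107 genes passed, against 95 with all libraries, so the count rose over all genes as well.

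The other members gave smaller or more variable differences in UNC1999. Penk was at 12.8, 10.4 and 8.76 CPM in the controls and at 7.89, 8.74 and 8.60 CPM in the treated retinas. The groups did not overlap, though the third control and second treated retina lay side by side (log2 fold change -0.33, adjusted p = 0.231). Sst was at 3.80 to 4.62 CPM in the controls and 3.09 to 3.85 CPM in the treated retinas (log2 fold change -0.27, adjusted p = 0.366). Npy and Sstr2 had log2 fold changes of 0.041 and -0.019. Of the 7 members 6 were below 0, and the median was -0.33, against -0.0020 over all genes tested. The 12 amacrine markers had a median of 0.011 in this experiment, with 7 above 0 and 5 below, and their summed levels overlapped (2493 to 2827 CPM in the controls, 2590 to 2737 CPM in the treated retinas). Scaled to those markers, Vip was at -0.38 and Cck at -0.65. The RPE markers summed to 108 to 126 CPM in the controls and 364 to 416 CPM in the treated retinas, and their part in the members' values was not tested.

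In the UNC0642 experiment no member passed, and 0% of the 16321 genes tested did in edgeR's quasi-likelihood test (0 genes, with 2407 at an unadjusted p under 0.05, 145 by the likelihood ratio test and 152 by DESeq2). Tac1 was at 25.3 and 22.9 CPM in the controls and at 29.5 and 30.2 CPM in the treated retinas (log2 fold change 0.31, SE 0.096, adjusted p = 0.304). Npy was at 23.5 and 22.04 CPM in the controls and at 25.8 and 34.9 CPM in the treated retinas (log2 fold change 0.41, SE 0.15, adjusted p = 0.328). Both treated values were above both controls for these 2 genes, as were 26.9% of all genes tested. Cck (17.4 and 21.5 CPM in the controls, 22.3 and 21.3 CPM after UNC0642), Vip (31.0 and 27.7, then 28.0 and 26.7 CPM), Sst (5.34 and 5.74, then 6.92 and 5.17 CPM) and Sstr2 (6.90 and 9.48, then 8.15 and 8.67 CPM) overlapped between groups. Penk was at 8.79 and 59.9 CPM in the controls, the widest gap between replicates of any member in a control group, and at 12.9 and 17.9 CPM in the treated retinas. Its log2 fold change was -1.15 (SE 0.77, adjusted p = 0.488). Without the control at 59.9 CPM it was 0.80, and without the control at 8.79 CPM it was -1.97 (adjusted p = 0.000178).

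Romidepsin gave the one change of Penk that passed. Penk was at 34.8, 42.1 and 42.7 CPM in the controls and at 18.1, 18.2 and 19.4 CPM in the treated retinas. The groups were far apart and each was tight, with means of 39.9 ± 4.36 and 18.6 ± 0.695 CPM (SD, n = 3 each) and a log2 fold change of -1.10 (SE 0.13, adjusted p = 0.0269 in edgeR's quasi-likelihood test). This was 1 of 7 members, where 0.748% of 16049 genes passed (120 genes), and 1 of 7 below every control in all treated retinas, where 12.5% of all genes were. The fold change stayed between -1.19 and -1.05 whichever library was left out, but the adjusted p rose to 0.12 without control replicate 2, 0.115 without control replicate 3 and 0.124 without treated replicate 3, where 0 genes passed at all. It was 0.214 in one model of all 22 retinas, in which the Penk spread of the other experiments entered, and 1.54e-08 by the likelihood ratio test and 2.97e-09 by DESeq2.

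The other members varied more among Romidepsin-treated retinas than among their controls. Sst was at 5.13, 4.65 and 5.85 CPM in the controls and at 6.67, 11.1 and 4.94 CPM in the treated retinas (log2 fold change 0.53, adjusted p = 0.356). Tac1 was at 15.7, 17.8 and 16.4 CPM and then at 13.6, 28.1 and 21.0 CPM (log2 fold change 0.33, adjusted p = 0.491). Cck was at 15.3, 14.7 and 16.2 CPM and then at 10.3, 20.8 and 12.6 CPM (log2 fold change -0.082, adjusted p = 0.889). For Sst, Tac1, Npy, Vip and Cck alike, treated replicate 2 was the highest of the treated group. The coefficient of variation of Cck was 4.76% in the controls and 37.9% in the treated retinas, and that of Tac1 6.43% and 34.5%. Npy, Vip and Sstr2 had log2 fold changes of 0.29, -0.078 and -0.34, and none passed.

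Genes that neurons switch on with activity are among the best known targets of CREB, and several of them rose in the same retinas. Of 18 activity-dependent and immediate-early genes, 16 lay above 0 (median 1.27) and 7 rose. Fosl1 had a log2 fold change of 3.18, Junb of 2.28, Fosb of 1.55 and Nr4a1 of 1.27. The 5 members with a CRE or half-site had log2 fold changes between -0.34 and 0.53 in these retinas. Of the 18 activity genes, 15 lay above 0 in UNC0642 and 11 in UNC1999, with 0 passing in either. In DZNep 12 lay below 0 and 6 above, where 5 fell and 1 rose. Whether the members follow these genes was not tested. In Romidepsin the 12 amacrine markers all lay below 0 (median -0.26, 0 passing), at a summed 3104 to 3587 CPM in the controls and 2745 to 2927 CPM in the treated retinas. Scaled to them, Penk had a log2 fold change of -0.87 (adjusted p = 0.0197). Values below 0 were not particular to amacrine markers. The 11 ganglion cell (median -0.36), 8 Mueller glia (-0.69) and 5 horizontal cell markers (-0.30) all lay below 0. So did 10 of 11 bipolar markers (-0.51), while the 9 rod markers lay above 0.

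Because Penk varied so much, the genes with the most similar profile over the 22 retinas are of interest. Log2 CPM was centred on the mean of each experiment, and 17154 genes were compared. For Penk they were Sod3 (extracellular superoxide dismutase, r = 0.94), Col18a1 (collagen XVIII, r = 0.93) and Optc (opticin, a proteoglycan of the vitreous made by the ciliary epithelium, r = 0.92). Without the 2 most extreme libraries r was 0.87, 0.83 and 0.84. Treatments are part of these profiles, and the libraries share their experiments, so r is a description. The same libraries stood out in all 4 genes. In the treated DZNep retina with Penk at 81.1 CPM, Optc was at 170 CPM, and in the other treated retina, with Penk at 7.73 CPM, Optc was at 3.76 CPM. In the UNC0642 control with Penk at 59.9 CPM, Optc was at 167 CPM, and in the other control, with Penk at 8.79 CPM, it was at 5.01 CPM. The DZNep control with Penk at 23.4 CPM had Optc at 48.9 CPM, against 10.2 to 10.9 CPM of Penk and 4.05 to 11.0 CPM of Optc in the other 3 controls.

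The Romidepsin experiment showed the same pairing between its groups. Optc was at 136, 221 and 212 CPM in the controls and at 81.3, 51.0 and 33.4 CPM in the treated retinas (log2 fold change -1.78, SE 0.31, adjusted p = 0.0491). Sod3 was at 19.0, 25.7 and 26.5 CPM and then at 15.0, 9.76 and 8.81 CPM (log2 fold change -1.09, adjusted p = 0.0656), and Col18a1 was at 260.6, 392.3 and 297.1 CPM and then at 245, 158 and 133 CPM (log2 fold change -0.82, adjusted p = 0.113). All 3 genes were below every control in all treated retinas, as were 12.5% of all genes tested. They were picked for their likeness to Penk over these same libraries, so this gives no further support. The 11 markers of ciliary body, iris and lens fixed for this work hold none of these 3 genes. Their summed level was 16.0 to 30.1 CPM in the Romidepsin controls and 10.1 to 14.5 CPM in the treated retinas, and 0 of the 4 tested passed. It was 134 CPM in the treated DZNep retina with high Penk and 7.97 CPM in the other, and 23.99 CPM in the UNC0642 control with high Penk and 6.82 CPM in the other. The RPE markers summed to 85.9 to 99.7 CPM in the Romidepsin controls and 49.3 to 63.1 CPM in the treated retinas. The part of such tissues in the Penk values was not tested. In UNC1999, Optc was at 3.49 to 8.37 CPM in all 6 retinas and Penk at 7.89 to 12.8 CPM. There the sum of the ciliary body, iris and lens markers went the other way from Penk. It was 4.16 to 11.9 CPM in the controls and 12.7 to 20.3 CPM in the treated retinas, where Penk was below every control.

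**Figure D3:**
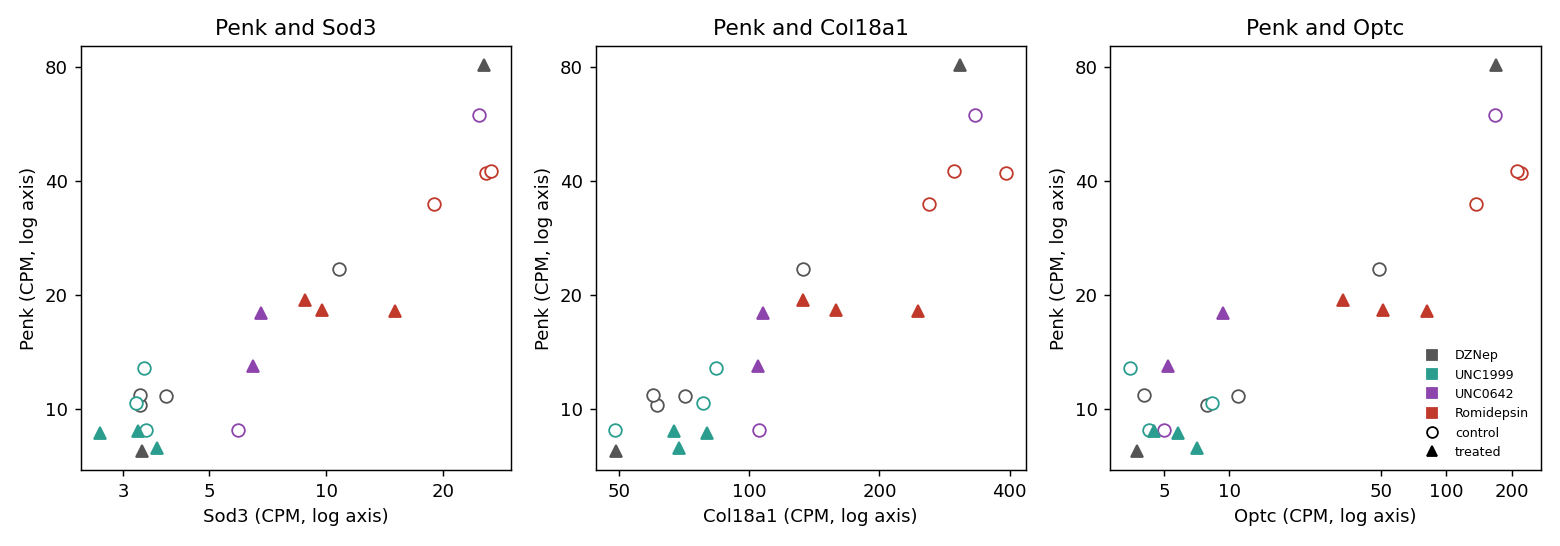
Penk (vertical log axis, CPM) is plotted against Sod3, Col18a1 and Optc (horizontal log axes, CPM) with 1 point per retina, colours for the 4 experiments, open circles for controls and triangles for treated retinas. The treated DZNep retina at 81.1 CPM of Penk and the UNC0642 control at 59.9 CPM sit with the 3 Romidepsin controls at the upper right of each panel.

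The genes most similar to Tac1, Vip, Cck, Sstr2 and Sst were of other kinds. For Tac1 they were Apex1, a DNA repair endonuclease (r = 0.94), the ribosomal protein gene Rps15a and Shb (both r = 0.91). Ribosomal protein genes share reads with many near-identical copies, so their counts are uncertain. For Vip they were Gm13476, Mxra7 and Lyl1 (r from 0.86 to 0.90), and for Cck Fam19a5, C330006A16Rik and the histone variant gene H2afy (r from 0.89 to 0.92). For Sstr2 (4930430F08Rik, Cmtm5 and Fads1, r from 0.78 to 0.82) and Sst (Anapc2, Porcn and Trpm4, r about 0.75 to 0.76) the likeness was weaker. Among the members themselves, Tac1 and Cck (r = 0.76) and Vip and Cck (r = 0.72) were the most alike. Penk had r between -0.31 and 0.28 with the other 6.

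Whether a member responded differently to 2 treatments was tested directly in one edgeR model of the 22 retinas. Over 6 pairs of treatments and 7 members, 0 of 42 differences passed at an adjusted p under 0.05 over all genes and pairs together, where 0.43% of 103644 tests did. The smallest adjusted p among the members was 0.156, for Penk between DZNep and Romidepsin (difference of log2 fold changes 2.75, SE 0.85), and this rests on the treated DZNep retina at 81.1 CPM, without which the DZNep log2 fold change of Penk was -0.83. The next were Penk between DZNep and UNC0642 (2.80, adjusted p = 0.20) and Tac1 between UNC1999 and Romidepsin (-0.68, adjusted p = 0.263). Without treated replicate 1 of DZNep, or treated replicate 1 of Romidepsin, 2 of the 42 differences passed, and 1 did by the likelihood ratio test. The calls of Cck, Tac1 and Npy in DZNep and of Penk in Romidepsin are therefore not shown to differ from the other treatments in the main test.

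In rods sorted from the Nrl-EGFP line, the members were close to the counting floor. Sst had 0 counts in all 4 libraries, which allows up to 0.0559 CPM over the 4 together, against a median of 5.24 CPM in control retinas. Vip was counted 1 time in each control and 21 and 38 times in the rods of GSK-treated mice. Sstr2 was counted 0 times in both controls and 15 and 17 times after GSK. Both treated libraries were above both controls for Vip, Sstr2, Penk and Npy. Penk had 0 and 2 counts in the controls and 9 and 6 after GSK, and Npy had 0 and 0 and then 2 and 4. Cck had 9 and 28 counts in the controls and 29 and 17 after GSK, and Tac1 had 0 and 9 and then 0 and 5.

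Scaled by depth and summed over each group, Vip was 24.9 times higher after GSK (95% exact interval 6.58 to 210, counting error only). Sstr2 was 8.99-fold higher when its control group was set at 3 counts. That value leaves out the counting error of the treated group, so it is not a lower limit. The ratio was 6.32 for Penk (1.47 to 57.0) and 1.05 for Cck (0.665 to 1.66). Across libraries, 3 of the 7 members could be tested and 0 passed, where 0% of 14478 genes did (0 genes in edgeR's quasi-likelihood test, with 711 at an unadjusted p under 0.05, 71 by the likelihood ratio test and 43 by DESeq2). Vip had an adjusted p of 0.721 and Sstr2 of 0.819, and by the likelihood ratio test these were 0.0186 and 0.00778. The paper, which used the likelihood ratio test with a fold threshold, names Sstr among genes raised by GSK in this experiment. Vip and Sstr2 passed the filter on low counts only through the libraries of GSK-treated mice. That both lay above both controls, as did 15.9% of all genes tested, was therefore fixed by the filter. The ratios and p-values of Vip and Sstr2 come from these same counts and give no further support. Penk, Sst, Tac1 and Npy did not pass it.

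Markers of inner retinal cells were present in the same sorted libraries. The 13 amacrine markers summed to 231 and 280 CPM in the controls and 280 and 473 CPM after GSK, the last being the library with 38 Vip counts. All 8 of them that could be tested lay above 0 in log2 fold change (median 0.79, 0 passing), and Chat and Pvalb were at 0 in all 4. In the retinas the same sum was 2493 to 3587 CPM in the controls. Values above 0 in the rods were not particular to amacrine markers. All 5 vascular markers tested (median 0.85), 7 of 8 Mueller glia markers (median 0.48) and the 2 horizontal cell markers tested also lay above 0. All 8 cone and all 6 microglia markers tested lay below 0, and the ganglion cell markers were split, with 3 above and 3 below. None of these passed. The 11 markers of bipolar cells, some of which carry Sstr2 in the rodent retina, all lay below 0 (median -0.34), at 1112 to 1480 CPM in the controls and 1031 to 1052 CPM after GSK. In the control retinas this sum was 1991 to 2736 CPM, a smaller gap from the rods than for the amacrine list. The bipolar sum is therefore not read as the amount of bipolar cells in the sort. The summed level of the 7 members was 1.34 and 2.34 CPM in the controls and 3.95 and 8.78 CPM after GSK. The part of other cells carried through the sort was not tested. Slc39a11, which spans Sstr2 on the other strand, had 66 and 157 counts in the controls and 163 and 68 after GSK, so it was present in libraries with and without Sstr2 counts. The labels name 1 library kit for retinas and sorted rods alike, while the study's methods name a different one for the rods, so levels in the rods and retinas are set side by side as a description only.

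**Figure D4:**
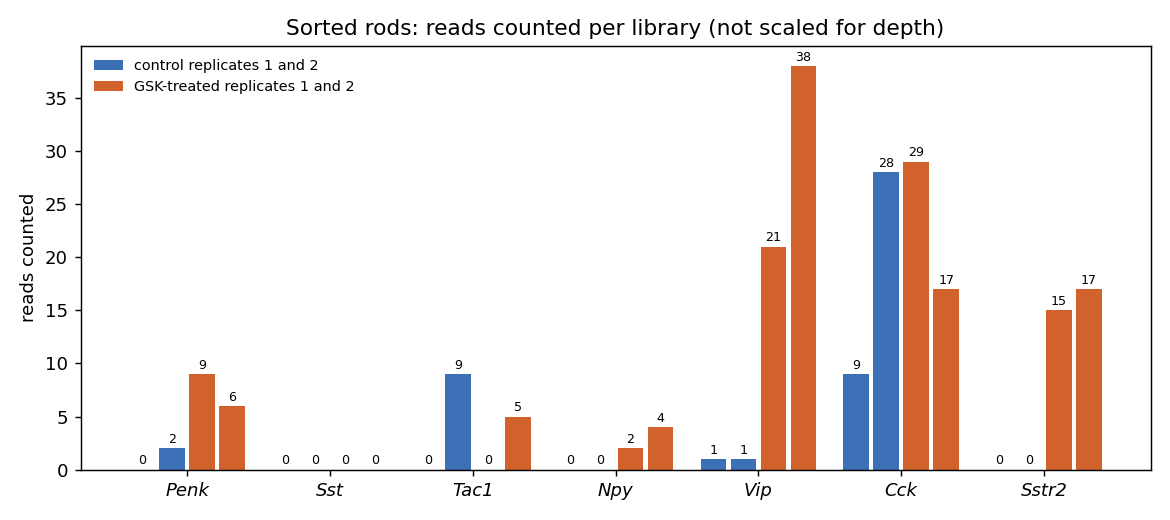
Bars show the reads counted for each gene (vertical axis, starting at 0, not scaled for depth) in the 4 sorted rod libraries, blue for the 2 controls and orange for the 2 from GSK-treated mice. Vip has 1 and 1 counts against 21 and 38, and Sstr2 has 0 and 0 against 15 and 17.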

How the data were processed

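Polyadenylated RNA was sequenced from 22 retinas and 4 sorted rod samples. Per the labels and methods, the authors aligned reads with HISAT2 2.2.1 to NCBIM37 and deposited a table of raw counts per Ensembl gene made with HTSeq 0.11.2, with no normalization. Whether counting used strand is not given in the sources used here. Symbols were taken from the GENCODE M1 annotation and a gene name table for 37205 of 37991 genes. The members and the gene lists were chosen with earlier results of these data known. The treatment label of 2 UNC1999 retinas reads UNC2000 or UNC2001, and genotype labels end in varying numbers. Titles were followed. Of the amacrine list 13 of 17 symbols were analysed here.

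Each treatment was tested against its own controls with edgeR 4.0.16 (R 4.3.3): filterByExpr, TMM scaling and the quasi-likelihood F test, with Benjamini-Hochberg adjustment over all genes tested and a threshold of 0.05. Differences between treatments came from one model of all retinas. SD is over libraries. SE is the size of the log2 fold change divided by the square root of the quasi-likelihood F, in which edgeR moderates the spread across genes. Nothing but the labels' biological replicate numbers says that libraries were separate animals. The 23 replicate pairs all differed by more than sampling noise (chi-square per gene at least 3.89). Genes named from other lists are those that passed, at most 4 per direction by p in each comparison. For each member but Npy, whose most similar genes are not reported here, the 3 genes of highest Pearson r are named. The test was tried on simulated counts with 200 changed genes, of which 174 (GSK) to 200 (DZNep) were recovered at a 4-fold change. Unchanged genes that were called numbered 12 (GSK) to 22 (Romidepsin). The changed genes were drawn from well-counted ones, so the recovery does not cover smaller changes or the low counts of the members in sorted rods. Other settings tried were DESeq2 1.42.0, edgeR's likelihood ratio test, other filters on low counts, RLE scaling, a fold threshold, a replicate block, one model, leaving out libraries and, added later, scaling to amacrine markers. Of these, the likelihood ratio test is the one that the study's methods name.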

Additional observations from a re-analysis of the deposited data

Results flagged for a closer look

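Penk was at 23.4 CPM in control replicate 1 of the DZNep experiment, against 10.2 to 10.9 CPM in the other 3 controls. The gap to its nearest neighbour took 0.953 of the whole range of the 4 values, above Dixon's critical value of 0.829. The 7 members were tested this way in this one group of 4, the other groups being smaller, and chance marks about 1 in 20 groups. Without this library the DZNep log2 fold change of Penk was 1.98 (adjusted p = 0.0778).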

How the results depend on the processing

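Across 436 refits of a member in a comparison, 371 kept the direction and the side of the threshold, 27 kept the direction and lost the call, 15 kept it and gained one, and 23 turned the direction. The cause of these shifts was not tested. All 23 that turned were of differences that did not pass. With the replicate block, Sst in DZNep was 0.21; in one model of all retinas it was 0.0095, and scaled to amacrine markers 0.23. Scaled to amacrine markers, Vip and Cck in Romidepsin were 0.17 and 0.17. Leaving out 1 library gave log2 fold changes in DZNep of -0.17 to 0.18 for Sst, -0.037 to 0.11 for Sstr2 and -0.83 to 2.56 for Penk. In UNC1999 the range was -0.063 to 0.17 for Npy and -0.092 to 0.024 for Sstr2, and in UNC0642 it was -0.10 to 0.32 for Sst, -0.18 to 0.28 for Sstr2 and -1.97 to 0.80 for Penk. In Romidepsin it was -0.43 to 0.11 for Cck and -0.16 to 0.030 for Vip, and in GSK -0.032 to 0.41 for Cck.

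The number of members passing (3, 0, 0, 1 and 0 in DZNep, UNC1999, UNC0642, Romidepsin and GSK) was least stable in DZNep, where no other setting gave 3. It was 2 there by the likelihood ratio test, DESeq2 and amacrine scaling (Tac1 lost), 4 with RLE scaling and with at least 10 counts in every library (Vip gained) and 4 with no filter (Penk gained). It fell to 0 in DZNep with the fold threshold, in one model and with the replicate block, and to 0 in Romidepsin in one model. It rose to 1 in UNC1999 by the likelihood ratio test, DESeq2 and one model, to 1 in UNC0642 and 1 in GSK with no filter on low counts, and to 2 in GSK by the likelihood ratio test. Leaving out 1 library gave 1 to 2 members in DZNep, 0 to 3 in UNC1999, 0 to 1 in UNC0642 and 0 to 1 in Romidepsin. Of the 42 differences between treatments 1 passed by the likelihood ratio test, and 0 to 2 when 1 library was left out, with 2 without Romidepsin treated replicate 1 or DZNep treated replicate 1.

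The counts over all genes moved more. The likelihood ratio test gave 1641 in UNC1999, 145 in UNC0642, 1185 in Romidepsin and 71 in GSK, and DESeq2 gave 1459, 152, 1074 and 43. With no filter the counts were 1024, 1052, 670 and 186. The fold threshold left 281 in DZNep and 58 in UNC1999. One model gave 1333 in DZNep, 1445 in UNC1999, 5 in UNC0642 and 2987 in Romidepsin, and amacrine scaling gave 339 in UNC1999 and 1268 in Romidepsin. Leaving out 1 library gave 1082 to 4537 in DZNep, 4 to 2707 in UNC1999, 0 to 148 in UNC0642, 0 to 508 in Romidepsin and 0 to 210 in GSK.

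Deviations of samples that share a replicate number correlated at -0.279 to 0.230, of mixed sign in DZNep, UNC1999 and Romidepsin and negative in GSK, so the numbers were not taken to pair samples. In UNC0642 both same-numbered pairs were at 0.213, which is 1 value given 2 times, since 2 libraries deviate equally from their mean, and too little to settle a pairing there. With the replicate block 0 members passed in DZNep, where 1415 genes did, 0 in UNC1999 (30 genes), 0 in UNC0642 (589 genes), 1 in Romidepsin and 0 in GSK (3 genes). DESeq2 gave no adjusted p for Sstr2 and Sst in UNC0642. With 2 to 4 libraries a group, a p above the threshold does not show that a gene did not differ.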
